A study of Mus musculus with 13 samples.

Results

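Complex IV (cytochrome c oxidase) and the ATP synthase (complex V) form the final steps of oxidative phosphorylation, and the messenger RNAs of their subunits were examined here in alveolar macrophages exposed to particulate matter (PM) with or without metformin. Genes were taken by symbol (starting with Cox4i, Cox5, Cox6, Cox7, Cox8, Atp5, mt-Co or mt-Atp, leaving out 4 pseudogenes marked -ps), which gave 41 of the 43430 genes in the count table. Of these, 36 are nuclear (19 of complex IV and 17 of the ATP synthase) and 5 are mitochondrially encoded (mt-Co1, mt-Co2 and mt-Co3 of complex IV, mt-Atp6 and mt-Atp8 of the ATP synthase).

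The animals were male C57Bl/6j mice aged 10 weeks, and the labels call the libraries of a group biological replicates. The 4 groups were metformin in the drinking water with instilled PM (n = 3), vehicle with PM (n = 3), metformin with phosphate-buffered saline (PBS, n = 3) and vehicle with PBS (n = 4). Metformin, a biguanide drug for type 2 diabetes, was given at 100 mg/kg/day, starting 24 h before instillation; PM was 10 µg per animal of a reference material of the US standards institute, put into the trachea, and lungs were taken 24 h later. Alveolar macrophages, the resident phagocytes of the air spaces, were sorted by flow cytometry, and their polyadenylated RNA was sequenced as 75-base single reads.

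Complex IV passes electrons from cytochrome c to oxygen and pumps protons across the inner mitochondrial membrane, and the ATP synthase lets protons flow back to drive ATP synthesis. The catalytic core of complex IV and the proton channel of the ATP synthase are encoded by mitochondrial DNA, while the surrounding subunits of complex IV and the catalytic head, c ring and stalks of the ATP synthase come from nuclear genes and must be imported. Several nuclear subunits of complex IV exist as isoforms typical of muscle, lung or testis. Metformin is known as a mild inhibitor of complex I, upstream of both machines.

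Libraries held 5567481 to 8100538 counts on genes, and each metformin PM library (6514625 or more) was deeper than each metformin PBS library (6434350 or fewer). Levels are given as CPM, counts brought to a common library size with scaling by the trimmed mean of M values, and levels of different genes are compared only per kilobase (kb) of transcript. All 14 alveolar macrophage markers were detected, with Siglecf at 477 to 608 CPM and Chil3 at 13345 to 19048 CPM in every library; the list summed to 27692 to 30569 CPM with metformin and PM, 24198 to 26726 with metformin and PBS, 25124 to 27605 with vehicle and PM and 25248 to 30175 with vehicle and PBS. Averaged over the arms, PM changed 11 of the 14 by edgeR (7 rose and 4 fell, where 8.63% of all genes tested rose and 7.76% fell). The lowest adjusted p were those of Car4 (1.07 ± 0.06 on the log2 scale), Ear1 (−0.52 ± 0.05), Ear2 (−0.37 ± 0.03) and Marco (1.03 ± 0.12).

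Several lists of other cell types moved with PM. Of 12 monocyte and monocyte-derived macrophage markers, 7 passed the filter, and their sum, mostly Fn1, was 2050 to 2489 CPM with metformin and PM, 1686 to 2365 with metformin and PBS, 2078 to 2972 with vehicle and PM and 1388 to 1765 with vehicle and PBS, while Ly6c2 stayed at or below 0.255 CPM. Single genes of this list changed more than the sum: Mmp14, Itgam and Mmp12 rose with PM by 4.42 ± 0.40, 1.67 ± 0.20 and 2.39 ± 0.28 with metformin and by 4.71 ± 0.40, 1.36 ± 0.17 and 1.64 ± 0.25 with vehicle, where Fn1 rose too, by 0.69 ± 0.11. Ccr2 fell by 0.47 ± 0.16 averaged, the only member of the list that did. The 6 endothelial and stromal markers summed to 24.7 to 43.6 CPM with metformin and PM, 10.2 to 15.9 with metformin and PBS, 8.62 to 24.5 with vehicle and PM and 9.72 to 21.2 with vehicle and PBS, and 4 of them rose with PM in the metformin arm and none in the vehicle arm. Of all genes tested, 7.18% rose with PM in the metformin arm and 2.6% in the vehicle arm. The test of a difference in the PM effect between the arms called 0 of the 6 (lowest adjusted p 0.128, edgeR). It called 1.44% of all genes tested. The 8 lymphocyte markers, of which 2 passed the filter, summed to at most 8.69 CPM with PM and at most 2.2 CPM with PBS, and both that passed, Igkc and Jchain, rose in both arms. Of 10 epithelial markers, 8 passed; the list summed to 260.0 to 305 CPM with metformin and PM, 244 to 297 with metformin and PBS, 233 to 273 with vehicle and PM and 238 to 285 with vehicle and PBS. In the metformin arm Sftpa1, Sftpc and Sftpb rose with PM by 1.51 ± 0.33, 1.23 ± 0.27 and 1.26 ± 0.33 and Epcam fell by 0.42 ± 0.12, and in the vehicle arm none passed. The test between the arms called 0 of the 8 (lowest adjusted p 0.319, edgeR). Of 8 erythroid and platelet markers, Pf4 alone passed the filter and rose by 2.07 ± 0.35 with metformin and 2.13 ± 0.36 with vehicle. Of 10 neutrophil markers 4 passed the filter, with sums of 58.5 to 82.7 CPM and Retnlg and Camp at 0. Among these, Mmp8 rose with PM in the metformin arm (0.43 ± 0.14, adjusted p = 0.0498, edgeR), and none was called in the vehicle arm. The test between the arms called 0 of the 4 (lowest adjusted p 0.266, edgeR). Csf3r fell with PM averaged over the arms (−0.30 ± 0.10, adjusted p = 0.0407, edgeR). Of 3 eosinophil markers none passed the filter, with Epx and Prg2 at 0. Marker genes also differed between metformin and vehicle by edgeR, where 3.07% of all genes tested were called with PBS and 6.89% with PM. With PBS, Marco (−1.11), Mmp8 (−0.67) and Cdh1 (−0.44) were lower with metformin. With PM, Col1a1 (1.80), Pecam1 (0.96), Col1a2 (1.17), Ager (0.91), Cidec (0.33) and Plet1 (0.28) were higher and Car4 (−0.32) was lower. The part of these cells in the PM and metformin results was not tested. In bulk RNA, fewer cells of a type and less RNA per cell cannot be told apart.

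The sequences of 2 mitochondrially encoded subunits show how the 5 mitochondrial genes differ for a read counter. The central 75 bases of mt-Co2 (bases 305 to 379 of the gene, mm10 chrM:7317-7391, plus strand) occur unchanged in transcripts of 2 other genes. Among them is Gm28661, an unprocessed pseudogene on chromosome 1 of the GENCODE M21 annotation. The central 75 bases of mt-Atp8 (bases 65 to 139, chrM:7830-7904, plus strand) have no copy in any other annotated transcript within 2 mismatches. Both are printed from the annotation at the length of 1 read.
mt-Co2: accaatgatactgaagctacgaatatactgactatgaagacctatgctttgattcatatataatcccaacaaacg
mt-Atp8: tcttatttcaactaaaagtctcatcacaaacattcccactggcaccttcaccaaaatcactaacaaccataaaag

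A 75-base read from most of mt-Co2 therefore matches more than 1 annotated transcript. Of all 75-base windows of a gene, 99.5% for mt-Co2, 99.5% for mt-Atp6 and 99.9% for mt-Co3 were found unchanged in another annotated transcript, against 39.8% for mt-Co1 and 0% for mt-Atp8. With up to 2 mismatches the share was 82.5% for mt-Co1, mostly in Gm13340, a pseudogene on chromosome 2 with 207 counts in all libraries together, and still 0% for mt-Atp8. Within 2 mismatches, windows of mt-Co2 and of mt-Atp6 were each found in 2 other genes, and those of mt-Co3 in 1. The genes holding most of these windows were Gm28661 for mt-Co2, Gm10925 for mt-Atp6 and Gm28437 for mt-Co3. Their own counts summed to 3, 6 and 5 over all libraries, and counts of the further genes are not given here. How reads with several alignments were treated is not given in the sources used here.

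Levels per kb followed this division. mt-Co1, the subunit that holds the oxygen-reducing site, averaged 2197 CPM per kb over the 13 libraries (range 2016 to 2304), and mt-Atp8, a small membrane subunit of the ATP synthase, averaged 1099 CPM per kb (855 to 1359). mt-Co2, which takes electrons from cytochrome c, stood at 17.0 CPM per kb (12.1 to 25), mt-Atp6, the proton channel, at 3.99 (1.6 to 9.86) and mt-Co3, a core subunit without redox centres, at 1.98 (1.22 to 3.2). Over all 13 protein-coding mitochondrial genes, the 5 with at least 97.8% of windows copied (these 3, mt-Nd3 and mt-Nd4l) averaged between 1.98 and 17.0 CPM per kb, and the 8 with at most 61.5% copied unchanged averaged between 475 and 2197. The counts of mt-Co2, mt-Co3 and mt-Atp6 are therefore reported as uncertain. mt-Atp8 and mt-Atp6 also share 43 bases on the same strand, which is 21.1% of mt-Atp8.

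**Figure D1:**
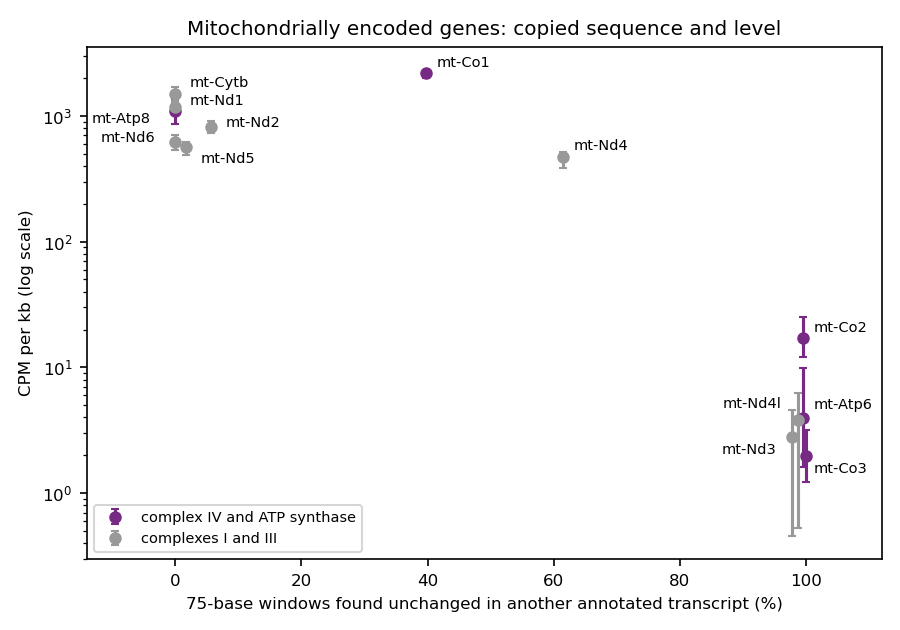
Each point is 1 of the 13 protein-coding mitochondrial genes, with the share of its 75-base windows found unchanged in another annotated transcript on the x axis (%) and its mean level over 13 libraries on the y axis (CPM per kb, log scale; bars run from the lowest to the highest library). The 5 genes at 97.8% or more sit at or below 17.0 CPM per kb, and the others at 475 or above.

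Among nuclear genes, 30 of 36 had enough counts to be tested (13 of complex IV and all 17 of the ATP synthase). The highest per kb were Atp5b, the catalytic beta subunit of the ATP synthase, at 483 CPM per kb (421 to 520 over libraries), and Cox4i1, the ubiquitous form of the largest nuclear subunit of complex IV, at 367 (327 to 404). Their ranges did not overlap. Atp5g3 (263 CPM per kb) and Cox6a1 (264) followed with overlapping ranges, with Atp5a1, the alpha subunit, at 252, Cox8a at 247 and Cox5a at 223. Atp5s, also named Dmac2l, was the lowest tested member at 1.54 CPM per kb (1.19 to 1.79).

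Isoforms typical of other tissues were low or undetected. Cox7a1, the heart and muscle form, averaged 5.78 CPM per kb, against 82.9 for Cox7a2, the ubiquitous form. Cox6a2, also of heart and muscle, averaged 1.57 CPM per kb, against 264 for Cox6a1. It had 1.24, 1.53 and 1.09 CPM in metformin PM libraries, against 0.982, 1.43 and 0.924 CPM in metformin PBS libraries, and 1.84, 0.622 and 0.813 CPM in vehicle PM libraries, against 0.791, 0.783, 0.957 and 0.893 CPM in vehicle PBS libraries, so its groups overlapped in both arms. Cox4i2, the form described in lung tissue, had a count in 9 of 13 libraries, where Cox4i1 ranged from 250 to 309 CPM. It had 0, 0.382 and 0.467 CPM in metformin PM libraries, against 0.164, 0.319 and 0.154 CPM in metformin PBS libraries, and 0.141, 0 and 0 CPM in vehicle PM libraries, against 0.158, 0.47, 0 and 0.179 CPM in vehicle PBS libraries, at most 3 counts in each library. Cox7b2 and Cox8c, of testis, and Cox8b, of muscle, had no count in any library, which allows at most 0.035 CPM over all 85616379 counts (3 counts; counting error only). Cox6c2, annotated as a processed pseudogene of Cox6c, had counts in 2 libraries only, 1 vehicle PM and 1 vehicle PBS library, at 0.141 and 0.159 CPM.

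Cox6b2, the testis form of an intermembrane-space subunit, was the exception. It averaged 35.7 CPM per kb (22.9 to 48.1), against 192 (168 to 220) for the somatic form Cox6b1. Of the 3 genes for the same c-ring protein, Atp5g3 averaged 263 CPM per kb and Atp5g2 46.9. These values depend on the transcript length taken: with the shortest principal transcript in place of the longest, Atp5g3 was at 267 and Atp5g2 at 77.7. Outside the c ring, Cox6b2 was then at 44.9 in place of 35.7 and Atp5mpl at 109 in place of 65.0. Likewise Cox6c was at 158 in place of 108, Atp5h at 182 in place of 130 and Atp5d at 124 in place of 81.8. For Atp5g1 the level was 10.9 with the longest principal transcript (4715 bases) and 86.4 with the shortest (596 bases), so its rank is not settled.

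**Figure D2:**
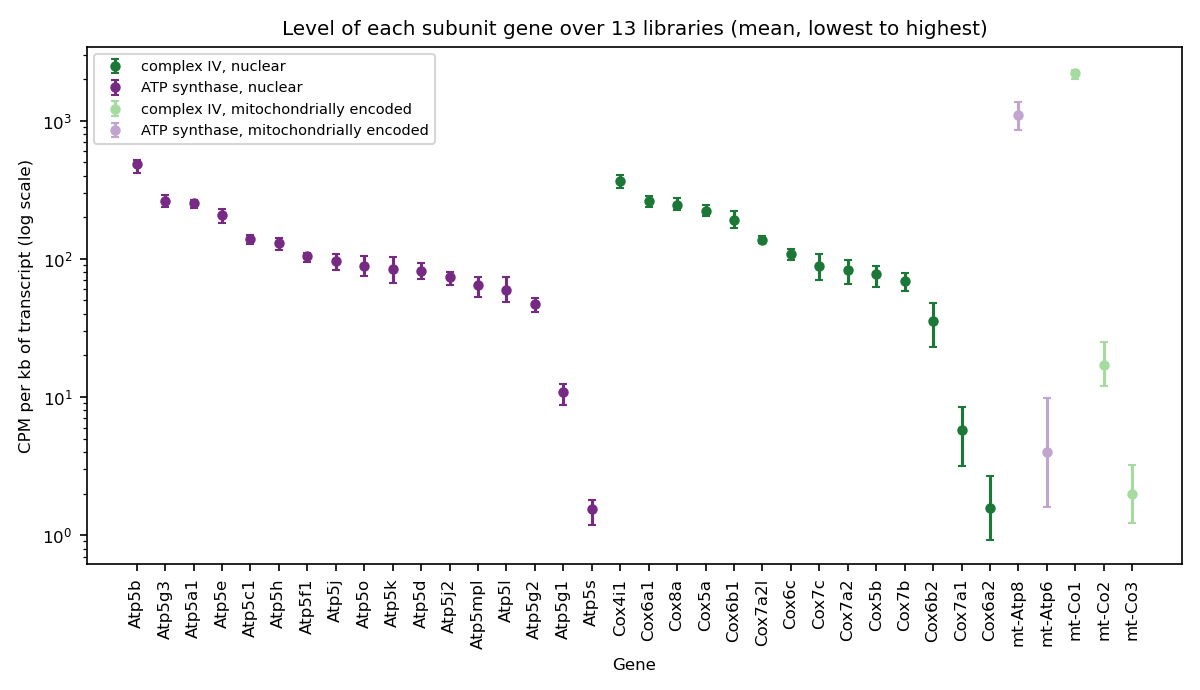
Mean level of each detected subunit gene (CPM per kb of transcript, log scale) over 13 libraries, with bars from the lowest to the highest library; genes with 0 counts in a library are not drawn. Nuclear genes of the ATP synthase run from 483 (Atp5b) to 1.54 (Atp5s), those of complex IV from 367 (Cox4i1) to 1.57 (Cox6a2), and the mitochondrially encoded genes split into 2 high and 3 low members.

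PM was compared with PBS within each drinking-water arm and averaged over both arms, which asks what the particles did to these messages after 24 h. Averaged over the arms, 7 nuclear subunit genes rose and 1 fell at an adjusted p under 0.05 (edgeR quasi-likelihood test, Benjamini-Hochberg over 11906 genes; 8.63% of all genes tested rose and 7.76% fell). The 7 were Cox7a2 of complex IV and Atp5o, Atp5j, Atp5g3, Atp5e, Atp5h and Atp5b of the ATP synthase, by 9.8% to 18.5%. Cox6b2 fell by 26.3%. The median log2 fold change of the 17 nuclear ATP synthase genes was 0.15, with 16 of 17 positive, and that of the 13 complex IV genes 0.09, with 10 of 13 positive. Over all genes tested the median was 0.00 and 50.5% were positive. Without metformin PBS replicate 1, 13 nuclear members rose: the same 7 and Atp5g1 (0.19), Atp5j2 (0.15), Atp5mpl (0.21), Cox4i1 (0.12), Cox7b (0.18) and Cox7c (0.27), with Cox6b2 still lower.

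With metformin, PM raised 6 nuclear members and lowered 1 (background 7.18% higher and 5.6% lower). The 6 were Cox7a2, Cox7b, Atp5j, Atp5b, Atp5g1 and Atp5g3, and the 1 was again Cox6b2. The median over the 30 tested was 0.15, with 26 positive, where the median of all genes tested was 0.01. In 8 of the 30, every PM library lay above every PBS library, which held for 16.1% of all genes tested. At an unadjusted p under 0.05, 10 of the 30 were higher, against 14.3% of all genes tested.

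With vehicle, no nuclear member passed at an adjusted p under 0.05 by edgeR or by DESeq2 (2.6% of all genes tested were called higher and 2.26% lower by edgeR). At an unadjusted p under 0.05, 6 of the 30 were higher, against 8.11% of all genes tested, and 1 (Cox6b2) was lower. The median was 0.09, with 25 of 30 positive, and in 7 of the 30 every PM library lay above every PBS library (7.33% of all genes tested). The PM effects of the arms did not differ for any member in the test of the difference itself (0 of 30 nuclear and 0 of 5 mitochondrial genes; lowest adjusted p 0.576 and 0.391 by edgeR; 1.44% of all genes tested were called; DESeq2 called none). At an unadjusted p under 0.05, the difference counted 0 nuclear genes and 1 mitochondrial gene, mt-Atp8. Of all 11906 genes tested, it counted 749 higher and 631 lower.

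**Figure D3:**
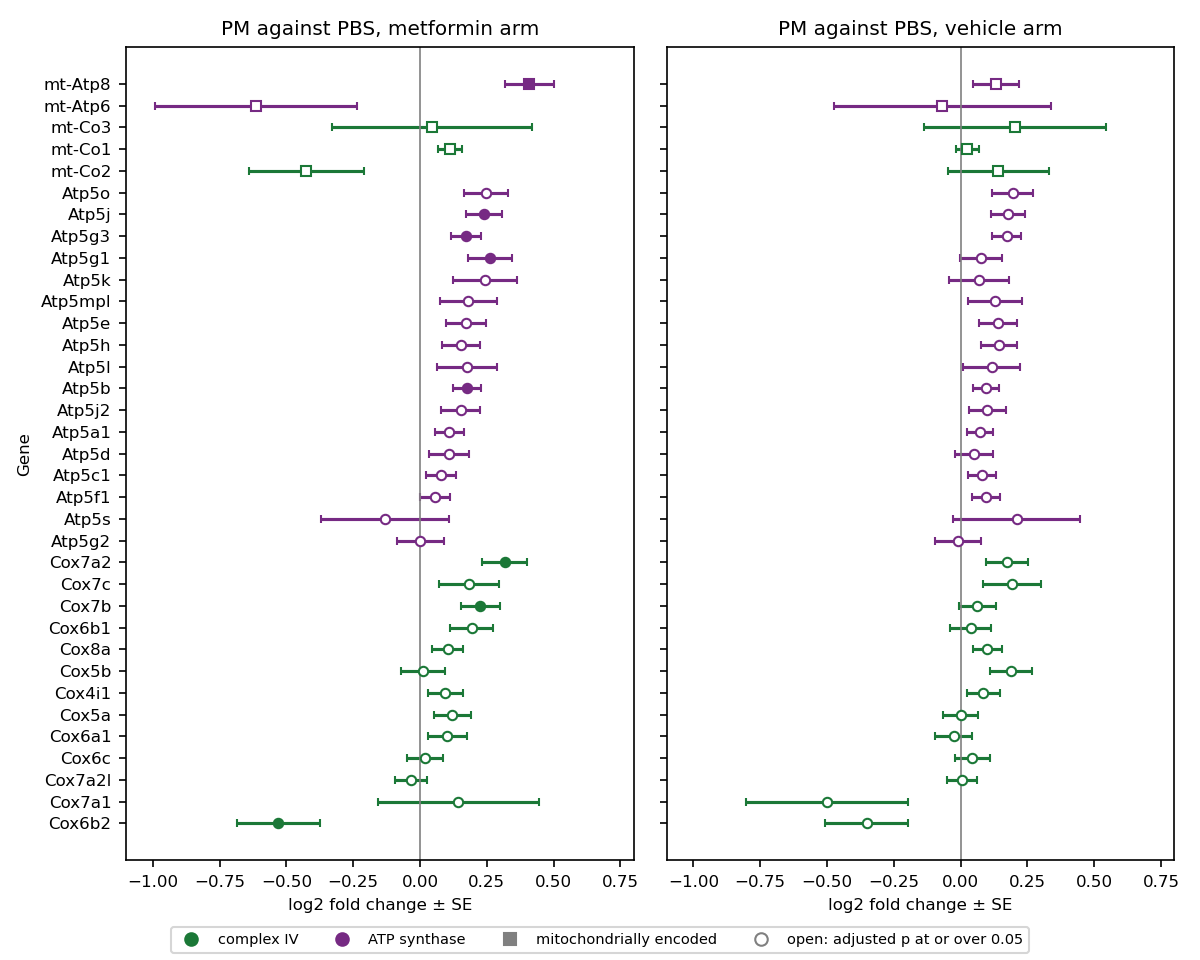
Log2 fold change of PM against PBS (x axis, ± SE) for the 35 tested subunit genes in the metformin arm (left) and the vehicle arm (right), ordered within each group by the effect averaged over the arms. Filled symbols passed an adjusted p of 0.05: 7 nuclear genes and mt-Atp8 with metformin, none with vehicle. Most ATP synthase genes lie right of 0 in both panels.

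Among the peripheral stalk genes, which tie the catalytic head to the membrane, Atp5j (coupling factor 6) had 77.8, 83.9 and 87.8 CPM in metformin PM libraries, against 72.2, 71.4 and 67.5 CPM in metformin PBS libraries. In the vehicle arm it had 81.6, 83 and 86.0 CPM in PM libraries, against 80.9, 73.2, 69.5 and 72.2 CPM in PBS libraries. In both arms every PM library was above every PBS library, though vehicle PBS replicate 1 lay close to the PM range. The log2 fold change was 0.24 ± 0.07 (SE) with metformin (adjusted p = 0.0237, edgeR), 0.18 ± 0.06 with vehicle (adjusted p = 0.141, edgeR) and 0.21 ± 0.05 averaged (adjusted p = 0.00392, edgeR). The call with metformin was lost with DESeq2 and without metformin PBS 3 or 4 or metformin PM 3 or 4 (range 0.19 to 0.28). Without vehicle PBS replicate 1 the vehicle value was 0.22 and passed. Exons of Atp5j overlap those of Gabpa on the other strand over 397 bases (12.7% of its exons), and the library kit keeps no strand, so its counts are uncertain to that extent.

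Atp5o, the subunit at the top of the stalk that confers oligomycin sensitivity, had 81.2, 73.4 and 84.7 CPM in metformin PM libraries, against 72.5, 62.4 and 66.2 CPM in metformin PBS libraries. With vehicle it had 82.4, 87.5 and 72.8 CPM in PM libraries, against 75.3, 69.2, 73.8 and 64.3 CPM in PBS libraries. The groups were apart with metformin and overlapped with vehicle, where PM replicate 3 was low. It rose by 0.22 ± 0.06 averaged over the arms (adjusted p = 0.0102, edgeR), and in each arm alone it did not pass (0.25 ± 0.08 with metformin and 0.19 ± 0.08 with vehicle; adjusted p = 0.0541 and 0.188, edgeR). It overlaps antisense transcripts over up to 18.1% of its exons, and 39.1% of its windows occur unchanged in other transcripts.

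Atp5h (subunit d) had 97.1, 93.9 and 95.6 CPM in metformin PM libraries, against 97.1, 80.4 and 80.6 CPM in metformin PBS libraries. With vehicle it had 90.7, 95.6 and 89.3 CPM in PM libraries, against 83.6, 88.4, 82.3 and 78.6 CPM in PBS libraries. Metformin PBS replicate 1 reached the PM level, while the vehicle groups did not overlap. Its averaged rise of 0.15 ± 0.05 (adjusted p = 0.0457, edgeR) was lost with DESeq2 and in 11 of 13 fits that left out 1 library, remaining only without vehicle PBS replicate 2 or metformin PBS replicate 1 (range of the change 0.12 to 0.19). Of the windows of Atp5h, 36.5% occur unchanged in other transcripts. Atp5f1 (subunit b), the remaining stalk gene, was at 153 to 176 CPM over all libraries and changed by 0.08 ± 0.04 averaged, which did not pass (adjusted p = 0.195, edgeR). Exons of Atp5f1 overlap those of Wdr77 on the other strand over 8.21% of their length.

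In the catalytic head, Atp5b had 947, 996 and 980.0 CPM in metformin PM libraries, against 898, 806 and 886 CPM in metformin PBS libraries. With vehicle it had 948, 984 and 962 CPM in PM libraries, against 940.0, 920.0, 888 and 864 CPM in PBS libraries. Every PM library was above every PBS library in both arms. The change was 0.18 ± 0.05 with metformin (adjusted p = 0.0302, edgeR), 0.10 ± 0.05 with vehicle (adjusted p = 0.336, edgeR) and 0.14 ± 0.04 averaged (adjusted p = 0.0118, edgeR). The call with metformin was lost in 7 of 13 fits without 1 library, namely any of metformin PBS 3 and 4, the 3 metformin PM libraries and vehicle PM 1 and 3 (range 0.12 to 0.19), and the averaged call in none. With only the groups compared, the call with metformin was lost too.

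Its partner Atp5a1 had 623, 658 and 648 CPM in metformin PM libraries, against 623, 579 and 585 CPM in metformin PBS libraries, and 634, 653 and 637 CPM in vehicle PM libraries, against 647, 625, 574 and 593 CPM in vehicle PBS libraries. The groups overlapped in both arms, and the averaged change of 0.09 ± 0.04 did not pass (adjusted p = 0.0945, edgeR). Atp5e, the epsilon subunit of the central stalk, had 95.1, 91.0 and 97.0 CPM in metformin PM libraries, against 93.1, 79.2 and 78.9 CPM in metformin PBS libraries. It had 89.0, 93.6 and 87.3 CPM in vehicle PM libraries, against 90.4, 77.7, 76.0 and 83.1 CPM in vehicle PBS libraries. One PBS library of each arm reached the PM range. The averaged rise of 0.15 ± 0.05 (adjusted p = 0.0452, edgeR) remained only without vehicle PBS replicate 1 or metformin PBS replicate 1, and was lost without any other library (range 0.13 to 0.19). It was also lost with DESeq2. Atp5c1 and Atp5d, the gamma and delta subunits, changed by 0.08 ± 0.04 and 0.08 ± 0.05 averaged and did not pass.

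Of the c-ring genes, Atp5g3 had 199, 209 and 207 CPM in metformin PM libraries, against 190.0, 171 and 184 CPM in metformin PBS libraries. In the vehicle arm it had 190.0, 210.0 and 203 CPM in PM libraries, against 177, 183, 181 and 173 CPM in PBS libraries. No PBS library reached the PM libraries of its own arm. The change was 0.17 ± 0.06 with metformin (adjusted p = 0.0498, edgeR), 0.17 ± 0.05 with vehicle (adjusted p = 0.0711, edgeR) and 0.17 ± 0.04 averaged (adjusted p = 0.00405, edgeR). The call with metformin was lost without any 1 library other than metformin PBS 1 (range 0.12 to 0.19), and the averaged call with none. In 5 of 7 other settings, among them DESeq2, the call with metformin was lost too.

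Atp5g1 had 54.4, 58.7 and 56.5 CPM in metformin PM libraries, against 50.7, 41.1 and 49.6 CPM in metformin PBS libraries, and 53.0, 52.9 and 52.5 CPM in vehicle PM libraries, against 50.3, 48.3, 55.6 and 46.1 CPM in vehicle PBS libraries. The groups were apart with metformin, where it rose by 0.26 ± 0.08 (adjusted p = 0.0449, edgeR), and overlapped with vehicle (0.07 ± 0.08). The call was lost in 9 of 13 fits without 1 library, in those without metformin PBS 3 or 4, vehicle PBS 2 or any PM library (range 0.17 to 0.31). It was also lost in 4 of 7 other settings, among them DESeq2. Atp5g2, whose windows are 86.9% copied in other transcripts, had 34.9, 37.3 and 34.4 CPM in metformin PM libraries, against 33.1, 35.5 and 38.0 CPM in metformin PBS libraries, and 30.2, 35.9 and 33.2 CPM in vehicle PM libraries, against 32.8, 35.4, 34.6 and 30.2 CPM in vehicle PBS libraries. These groups overlapped, and the interval of the averaged change was −0.13 to 0.12. The membrane subunits Atp5j2, Atp5k, Atp5l and Atp5mpl changed by 0.13 to 0.16 averaged, and none passed.

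In complex IV, Cox7a2, a small membrane subunit, had 57.1, 64.5 and 59.4 CPM in metformin PM libraries, against 55.5, 43.3 and 46.7 CPM in metformin PBS libraries. With vehicle it had 60.0, 61.4 and 54.1 CPM in PM libraries, against 54.1, 51.7, 51.2 and 50.7 CPM in PBS libraries. The groups were apart with metformin. With vehicle they were apart too, but only just: the nearest PM and PBS libraries both round to 54.1 CPM. It rose by 0.32 ± 0.08 with metformin (adjusted p = 0.0173, edgeR) and by 0.24 ± 0.06 averaged (adjusted p = 0.00611, edgeR), and changed by 0.17 ± 0.08 with vehicle (adjusted p = 0.274, edgeR). The call with metformin was lost without metformin PBS 3, metformin PBS 4 or metformin PM 3 (range 0.24 to 0.41). Its muscle counterpart Cox7a1 had 1.86, 3.31 and 2.18 CPM in metformin PM libraries, against 2.95, 2.07 and 1.69 CPM in metformin PBS libraries, and 1.98, 1.24 and 2.11 CPM in vehicle PM libraries, against 2.69, 2.2, 2.55 and 2.68 CPM in vehicle PBS libraries. With vehicle every PM library was below every PBS library (as for 905 of all 11906 genes tested), and with metformin the groups overlapped. Its changes were 0.14 ± 0.30 with metformin and −0.50 ± 0.30 with vehicle, and neither these nor their difference (0.64 ± 0.43) passed (adjusted p = 0.82, 0.453 and 0.61, edgeR).

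Cox6b2 went the other way. It had 17.4, 13.5 and 23 CPM in metformin PM libraries, against 28.2, 26.1 and 22.8 CPM in metformin PBS libraries, and 20.1, 13.4 and 18.5 CPM in vehicle PM libraries, against 21, 22.4, 23.6 and 21.6 CPM in vehicle PBS libraries. The vehicle groups were apart, and with metformin PM replicate 4 overlapped PBS replicate 4. It fell by 0.53 ± 0.16 on the log2 scale with metformin (adjusted p = 0.0302, edgeR) and by 0.44 ± 0.11 averaged (adjusted p = 0.00856, edgeR), and changed by −0.35 ± 0.15 with vehicle (adjusted p = 0.241, edgeR). The call with metformin was lost without metformin PBS 1 or 3 or metformin PM 1 or 3 (range −0.74 to −0.37). No window of Cox6b2 is copied in another transcript, also with 2 mismatches.

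Cox6b1 had 136, 119 and 124 CPM in metformin PM libraries, against 123, 104 and 105 CPM in metformin PBS libraries, and 110.0, 131 and 119 CPM in vehicle PM libraries, against 115, 121, 125 and 106 CPM in vehicle PBS libraries. These groups overlapped, with an averaged change of 0.12 ± 0.06 that did not pass (adjusted p = 0.178, edgeR). Per kb, Cox6b2 made up 13% ± 2.99 of the Cox6b messages with metformin and PM and 19.7% ± 1.17 with metformin and PBS (SD, n = 3 each). With vehicle it made up 13.3% ± 3.29 with PM (n = 3) and 16.7% ± 0.67 with PBS (SD, n = 4). These shares depend on the transcript length taken: Cox6b2 averaged 35.7 CPM per kb with 585 bases, as used here, and 44.9 with 465 bases. The share was lower in every PM library than in every PBS library of its own arm (10.7% to 16.4% against 18.7% to 21% with metformin, and 9.72% to 16.1% against 16.2% to 17.7% with vehicle).

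Cox7b, another small membrane subunit, had 75.0, 73.4 and 78.9 CPM in metformin PM libraries, against 73.0, 62.8 and 58.7 CPM in metformin PBS libraries, and 68.4, 71.1 and 69.3 CPM in vehicle PM libraries, against 65.4, 67.1, 70.0 and 64.0 CPM in vehicle PBS libraries. PBS replicate 1 of the metformin arm lay close to the PM libraries, and the vehicle groups overlapped. The rise of 0.23 ± 0.07 with metformin (adjusted p = 0.0483, edgeR) was lost in 10 of 13 fits without 1 library. It remained only without metformin PBS 1, vehicle PBS 1 or vehicle PBS 3 (range 0.15 to 0.31). This call was also lost in 5 of 7 other settings, among them DESeq2. Averaged over the arms Cox7b did not pass (0.14 ± 0.05, adjusted p = 0.0588, edgeR).

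Cox7c, also a small membrane subunit, had 52.8, 52.4 and 53.7 CPM in metformin PM libraries, against 58.1, 44.3 and 37.7 CPM in metformin PBS libraries, and 52.5, 48.0 and 48.6 CPM in vehicle PM libraries, against 41.6, 43.9, 48.9 and 39.7 CPM in vehicle PBS libraries. The groups overlapped in both arms, through metformin PBS replicate 1 and vehicle PBS replicate 3. Its averaged change of 0.19 ± 0.08 did not pass (adjusted p = 0.109, edgeR), but passed with no filter on low counts and, at 0.27, without metformin PBS replicate 1. Of its windows, 50.4% occur unchanged in other transcripts. Cox6c had 86.9, 76.3 and 85.6 CPM in metformin PM libraries, against 76.6, 82.7 and 85.8 CPM in metformin PBS libraries, and 79.4, 75.7 and 79.5 CPM in vehicle PM libraries, against 78.2, 74.3, 79.1 and 71.8 CPM in vehicle PBS libraries. Its groups overlapped, with an averaged change of 0.03 ± 0.05 that did not pass (adjusted p = 0.7, edgeR).

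The core nuclear subunits of complex IV, Cox4i1, Cox5a and Cox5b, did not pass in any comparison with all 13 libraries. Cox4i1 had 295, 283 and 292 CPM in metformin PM libraries, against 302, 250 and 263 CPM in metformin PBS libraries, and 288, 309 and 274 CPM in vehicle PM libraries, against 291, 276, 267 and 262 CPM in vehicle PBS libraries. Cox5a had 151, 145 and 152 CPM in metformin PM libraries, against 148, 132 and 132 CPM in metformin PBS libraries, and 133, 156 and 144 CPM in vehicle PM libraries, against 149, 153, 134 and 141 CPM in vehicle PBS libraries. For both, the groups overlapped in both arms. Exons of Cox4i1 and Cox5a overlap those of Emc8 and Gm26631 on the other strand, over 9.94% and 12.8% of their length. Cox5b, which binds zinc, had 64.9, 69.2 and 70.2 CPM in metformin PM libraries, against 71.2, 65.6 and 65.9 CPM in metformin PBS libraries, and 65.0, 72.0 and 76.9 CPM in vehicle PM libraries, against 69.5, 62.0, 63.8 and 54.1 CPM in vehicle PBS libraries. Its groups overlapped too. The averaged changes were 0.09 ± 0.05 for Cox4i1, 0.06 ± 0.05 for Cox5a and 0.10 ± 0.06 for Cox5b (adjusted p = 0.2, 0.432 and 0.261, edgeR). Cox6a1, the liver-type form of a membrane subunit, had 145, 157 and 161 CPM in metformin PM libraries, against 163, 135 and 134 CPM in metformin PBS libraries, and 149, 153 and 149 CPM in vehicle PM libraries, against 161, 157, 154 and 140.0 CPM in vehicle PBS libraries. Cox8a had 141, 141 and 141 CPM in metformin PM libraries, against 131, 125 and 137 CPM in metformin PBS libraries, and 137, 150 and 138 CPM in vehicle PM libraries, against 136, 133, 126 and 132 CPM in vehicle PBS libraries. Cox6a1 overlapped in both arms, whereas every PM library of Cox8a lay above every PBS library of its arm, with an averaged change of 0.10 ± 0.04 that did not pass (adjusted p = 0.0887, edgeR). Cox7a2l, a factor that joins complexes III and IV, had 148, 140.0 and 153 CPM in metformin PM libraries, against 155, 145 and 152 CPM in metformin PBS libraries, and 140.0, 157 and 139 CPM in vehicle PM libraries, against 149, 143, 147 and 141 CPM in vehicle PBS libraries. It overlapped in both arms and changed by −0.01 ± 0.04 averaged, with an interval of −0.09 to 0.07.

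**Figure D4:**
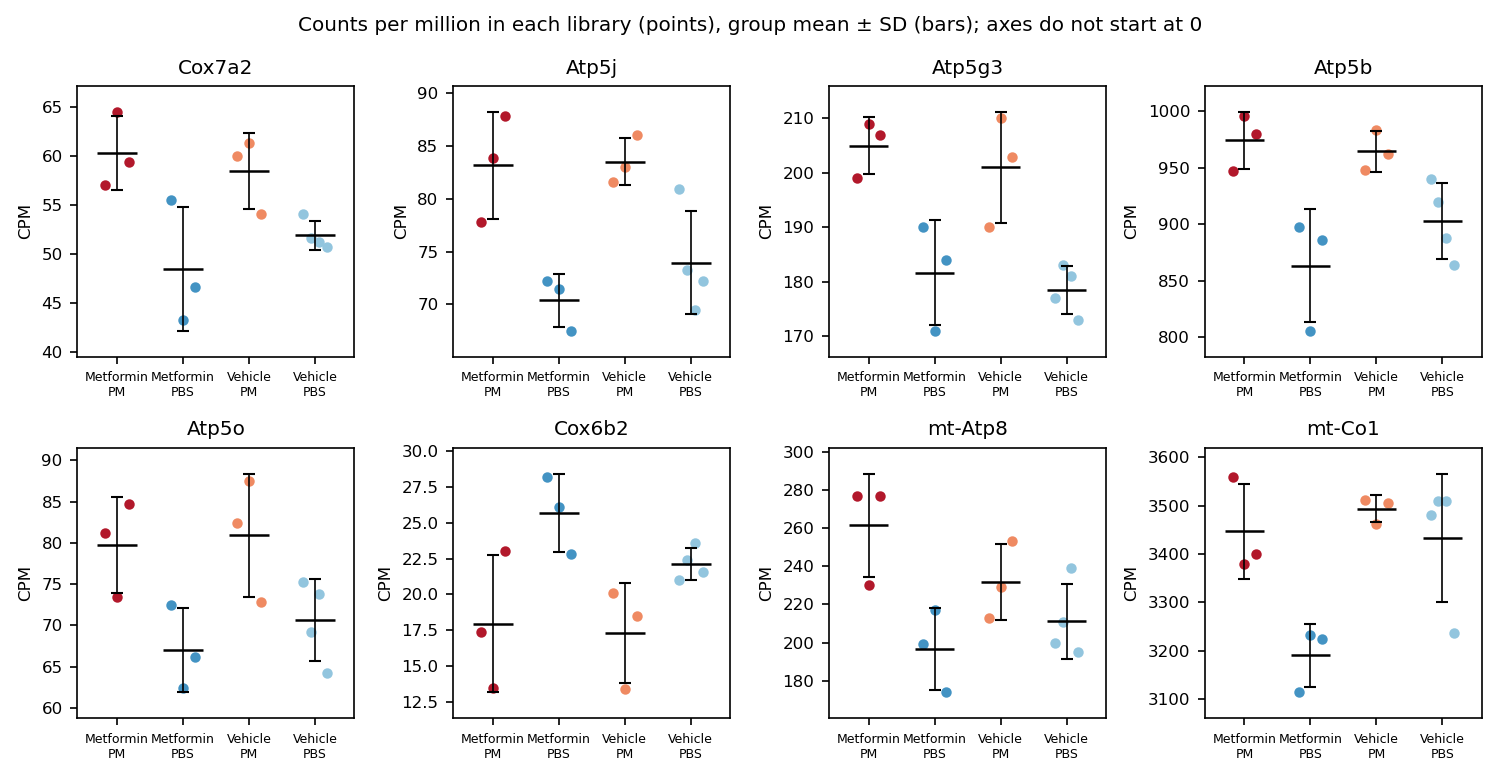
CPM in each library (points) of 8 subunit genes in the 4 groups, with the group mean and SD (bars); the axes do not start at 0. In the metformin arm, PM libraries lie above PBS libraries for Cox7a2, Atp5j, Atp5g3, Atp5b, Atp5o, mt-Atp8 and mt-Co1, while for Cox6b2 2 of the 3 PM libraries lie below all PBS libraries.

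Of the mitochondrially encoded members, mt-Atp8 had 277, 230.0 and 277 CPM in metformin PM libraries, against 199, 217 and 174 CPM in metformin PBS libraries. With vehicle it had 213, 229 and 253 CPM in PM libraries, against 200, 211, 239 and 195 CPM in PBS libraries. The groups were apart with metformin and overlapped with vehicle. It rose by 0.41 ± 0.09 with metformin (32.8%; adjusted p = 0.00551, edgeR) and by 0.27 ± 0.06 averaged (adjusted p = 0.00539, edgeR), and changed by 0.13 ± 0.09 with vehicle (adjusted p = 0.501, edgeR). Neither call was lost without any of the 13 libraries. The difference of the PM effects was 0.28 ± 0.13 and did not pass (adjusted p = 0.391, edgeR).

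mt-Co1 had 3560, 3380 and 3399 CPM in metformin PM libraries, against 3114, 3232 and 3224 CPM in metformin PBS libraries, and 3512, 3461 and 3506 CPM in vehicle PM libraries, against 3480, 3509, 3509 and 3236 CPM in vehicle PBS libraries. The metformin groups did not overlap and the vehicle groups did. Its changes were 0.11 ± 0.05 with metformin and 0.03 ± 0.04 with vehicle, and neither passed (adjusted p = 0.113 and 0.841, edgeR).

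The 3 genes with copied sequence had few counts. mt-Co2 had 9.06, 9.3 and 8.25 CPM in metformin PM libraries, against 11.0, 9.88 and 14.9 CPM in metformin PBS libraries, and 12.1, 17.1 and 11.2 CPM in vehicle PM libraries, against 16.9, 11.9, 10.5 and 9.29 CPM in vehicle PBS libraries. mt-Atp6 had 2.98, 3.18 and 1.09 CPM in metformin PM libraries, against 6.71, 2.39 and 2.46 CPM in metformin PBS libraries, and 1.98, 2.8 and 2.11 CPM in vehicle PM libraries, against 2.85, 2.04, 2.07 and 2.68 CPM in vehicle PBS libraries. mt-Co3 ranged from 0.957 to 2.51 CPM, with 1.86, 1.15 and 1.4 CPM in metformin PM libraries, against 1.8, 1.43 and 1.08 CPM in metformin PBS libraries, and 1.7, 1.87 and 1.79 CPM in vehicle PM libraries, against 1.42, 2.51, 0.957 and 1.25 CPM in vehicle PBS libraries. mt-Atp6 and mt-Co3 overlapped between PM and PBS in both arms. mt-Co2 was lower in every metformin PM library than in every metformin PBS library, as were 1659 of all 11906 genes tested. None of the 3 passed in a PM comparison, and with vehicle none of the 5 mitochondrial members did (0 by edgeR, 0 by DESeq2 and 0 at an unadjusted p under 0.05); the log2 fold changes of mt-Co2, mt-Atp6 and mt-Co3 with metformin were −0.43 ± 0.21, −0.61 ± 0.38 and 0.04 ± 0.37.

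As a share of all counts, the nuclear ATP synthase genes took 0.288% ± 0.0041 with metformin and PM and 0.264% ± 0.0105 with metformin and PBS (SD, n = 3 each), and 0.286% ± 0.0055 with vehicle and PM (n = 3) and 0.270% ± 0.00983 with vehicle and PBS (SD, n = 4). Every PM library (0.281% to 0.292%) was above every PBS library (0.253% to 0.280%). Atp5b and Atp5a1 weigh most in this share, with 79223 and 53195 counts over all libraries, ahead of Atp5g3 with 16325. The nuclear complex IV genes took 0.124% to 0.138% over all libraries, with PM and PBS overlapping in both arms. The mitochondrially encoded members together took 0.33% to 0.383%, of which mt-Co1 alone made up 0.308% to 0.354%.

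**Figure D5:**
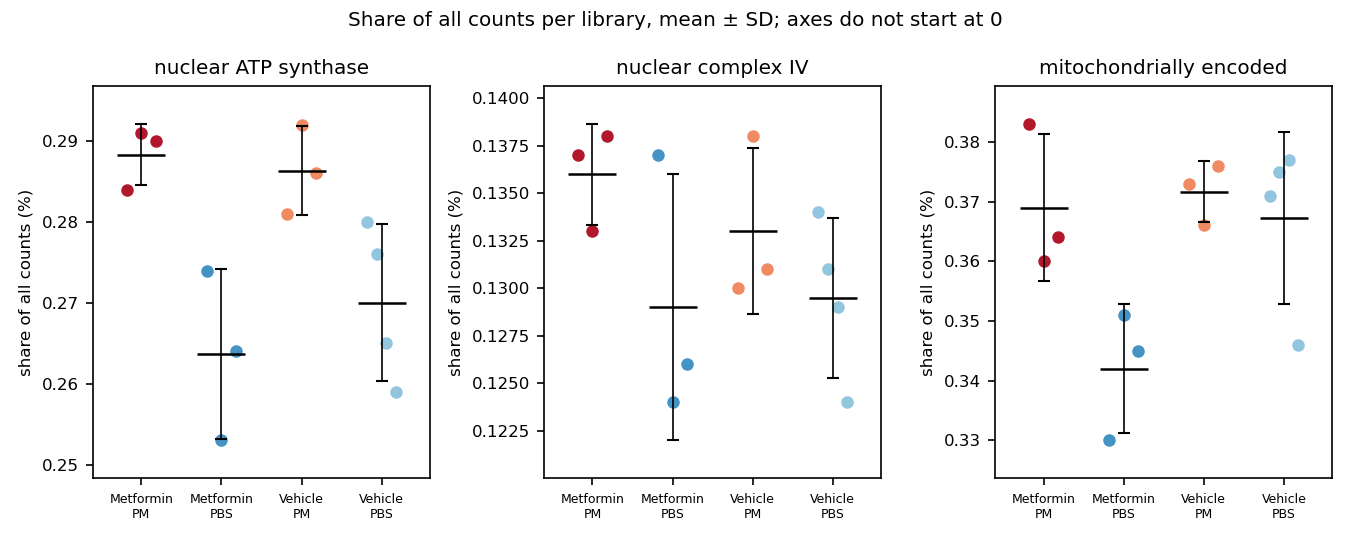
Share of all counts per library (%, points) taken by the nuclear ATP synthase genes, the nuclear complex IV genes and the 5 mitochondrially encoded members in the 4 groups, with the mean and SD (bars); the axes do not start at 0. The nuclear ATP synthase share was 0.281% to 0.292% with PM and 0.253% to 0.280% with PBS, and the complex IV shares overlapped.

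Metformin was compared with vehicle within each instillate and averaged over both, which asks what the drug did to the same messages. No nuclear member passed at an adjusted p under 0.05 by edgeR or DESeq2, or at an unadjusted p under 0.05 by edgeR, in any of the 3 comparisons (3.07% of all genes tested were called with PBS, 6.89% with PM and 10.8% averaged). The nuclear medians were −0.02 with PBS, 0.03 with PM and 0.01 averaged. For Atp5b the metformin effect averaged over instillates was −0.02 ± 0.04, with an interval of −0.09 to 0.04, and for Cox4i1 −0.01 ± 0.05 (−0.10 to 0.08). No mitochondrially encoded member passed either (0 by edgeR and 0 by DESeq2; at an unadjusted p under 0.05 by edgeR, 1 in each of the 3 comparisons, mt-Co1 with PBS and mt-Co2 with PM and averaged). Of the 11906 genes tested, that threshold counted 993 higher and 1132 lower with PBS, 1281 and 1136 with PM, and 1505 and 1553 averaged. With PBS, mt-Co1 was lower in all 3 metformin libraries (3114 to 3232 CPM) than in the 4 vehicle libraries (3236 to 3509 CPM), a change of −0.11 ± 0.04 (adjusted p = 0.18, edgeR). With PM, mt-Co2 was lower in all 3 metformin libraries than in the 3 vehicle libraries, by −0.60 ± 0.21 (adjusted p = 0.0926, edgeR); it passed without vehicle PBS replicate 1 at the same value of −0.60, and was −0.40 without vehicle PM replicate 2. Averaged, mt-Co2 changed by −0.32 ± 0.14 (adjusted p = 0.171, edgeR). Of the 11906 genes tested, every metformin library lay below every vehicle library for 898 with PBS and for 1557 with PM.

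Lists of neighbouring genes were chosen with earlier results known and are given as counts. For all genes tested, the shares called were 7.18% higher and 5.6% lower for PM with metformin, 2.6% and 2.26% for PM with vehicle, and 8.63% and 7.76% averaged over the arms. Of 7 other mitochondrially encoded genes tested, 6 rose with PM in the metformin arm, with a median of 0.20; among them mt-Cytb of complex III (0.27 ± 0.05, adjusted p = 0.000595, edgeR) and mt-Nd1, mt-Nd6 and mt-Nd5 of complex I. In the vehicle arm none of the 7 passed, with a median of 0.13 and 4 higher at an unadjusted p under 0.05. Averaged over the arms, 6 of the 7 rose. The difference of the PM effects called 0 of the 7 (lowest adjusted p 0.357, edgeR), where 1.44% of all genes tested were called. With PBS, metformin lowered mt-Nd4 (−0.19 ± 0.05, adjusted p = 0.0483, edgeR). Of 30 tested genes for assembly and partners of complex IV, 3 rose with PM in the metformin arm. They were Cycs, the electron donor cytochrome c (0.35 ± 0.10), Ndufa4, a further subunit of complex IV (0.24 ± 0.07), and Coa7, an assembly factor (0.51 ± 0.17), with adjusted p of 0.0228, 0.0308 and 0.0477 (edgeR). With vehicle 0 of the 30 passed (2 higher and 1 lower at an unadjusted p under 0.05, and 0.191 as the lowest adjusted p, edgeR). The difference of the PM effects called 0 of the 30 (lowest adjusted p 0.319, edgeR). Averaged over the arms, 4 of the 30 rose (Cycs, Slirp, Ndufa4 and Lrpprc, by 0.24, 0.17, 0.16 and 0.18) and 1 fell, the assembly factor gene Higd2a (−0.16 ± 0.05, adjusted p = 0.046, edgeR).

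Of 19 tested assembly and accessory genes of the ATP synthase, none passed with PM in either arm (4 higher with metformin and 1 lower with vehicle at an unadjusted p under 0.05, edgeR); Vdac2, an outer membrane channel, fell with metformin in the PM libraries (−0.23 ± 0.05, adjusted p = 0.0129, edgeR). Of 19 nuclear examples of complexes I to III, none passed in either arm alone (2 higher with metformin and 5 with vehicle at an unadjusted p under 0.05), and 2 rose with PM averaged over the arms, Sdhb of complex II (0.15 ± 0.04) and Uqcrfs1, the iron-sulphur protein of complex III (0.16 ± 0.05), with adjusted p of 0.0215 and 0.0247 (edgeR). Of 29 tested genes for mitochondrial transcription and biogenesis, PM lowered Esrrg in both arms (−0.93 ± 0.23 with metformin and −1.35 ± 0.20 with vehicle) and, with metformin, Ppargc1b (−0.86 ± 0.17) and Esrra (−0.29 ± 0.07), with adjusted p of 0.0112, 0.000364, 0.00203 and 0.0103 (edgeR). Esrrg and Esrra are nuclear receptors, and Ppargc1b a coactivator, that are known to raise transcription of respiratory chain genes. With vehicle, PM raised Phb, a chaperone of the inner membrane (0.26 ± 0.07, adjusted p = 0.0467, edgeR). The difference of the PM effects called 0 of the 29 (lowest adjusted p 0.1, edgeR). In PM libraries, metformin lowered Ppargc1b (−0.80 ± 0.17) and Esrra (−0.27 ± 0.07), with adjusted p of 0.00611 and 0.0236 (edgeR).

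Since several nuclear members moved together, their promoters were read in RefSeq (build GRCm38.p6, 250 bases before to 50 after each start). Of the 36 nuclear genes, 28 matched, and 8 (Atp5a1, Atp5mpl, Cox4i1, Cox4i2, Cox6a2, Cox6c, Cox6c2 and Cox8c) did not. The 26 tested genes among those matched had 29 promoters. Searched on both strands, the NRF1 core GCATGCGC was in 4 of the 29 (13.8%; 5.28% of the 11599 promoters of all tested genes and 2.71% of all 32851 in the table). The ETS core CCGGAAG, read by GABPA, was in 8 (27.6%; 18.6% and 8.86%), the YY1 core AAGATGGC in 3 (10.3%; 4.78% and 2.75%) and the Sp1 core GGGCGG in 11 (37.9%; 62.2% and 35.7%). The cAMP response element TGACGTCA was in none (3.12% and 1.79%), and the element TCAAGGTCA, read by receptors of the ERR family, in 1, that of Atp5g3 (3.45%; 0.285% and 0.423%). The ERR element is longer and rarer than the others, and 1 match is a description only.

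Promoters of 3 ATP synthase genes that rose with PM averaged over the arms are printed 5′ to 3′ on the strand of the gene, with every match to these 6 motifs in capitals. Atp5j (chr16:84834927-84835226, minus strand, the second of its 2 starts in the table) holds a YY1 and an ETS core. Atp5g3 (chr2:73911277-73911576, minus strand) holds the ERR element on the opposite strand, and Atp5b (chr10:128083057-128083356, plus strand) holds an Sp1 core on each strand.
Atp5j: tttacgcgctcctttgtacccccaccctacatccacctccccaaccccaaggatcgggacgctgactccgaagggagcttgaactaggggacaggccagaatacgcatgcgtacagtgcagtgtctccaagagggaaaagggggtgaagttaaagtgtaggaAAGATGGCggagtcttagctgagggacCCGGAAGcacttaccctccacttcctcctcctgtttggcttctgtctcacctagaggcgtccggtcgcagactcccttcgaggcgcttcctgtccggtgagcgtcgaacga
Atp5g3: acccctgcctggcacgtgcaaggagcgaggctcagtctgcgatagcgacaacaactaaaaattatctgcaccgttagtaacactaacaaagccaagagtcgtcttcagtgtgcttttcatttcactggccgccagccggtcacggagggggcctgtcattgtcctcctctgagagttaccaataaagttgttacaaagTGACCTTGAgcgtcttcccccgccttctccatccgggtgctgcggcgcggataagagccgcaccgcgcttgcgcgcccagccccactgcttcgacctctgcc
Atp5b: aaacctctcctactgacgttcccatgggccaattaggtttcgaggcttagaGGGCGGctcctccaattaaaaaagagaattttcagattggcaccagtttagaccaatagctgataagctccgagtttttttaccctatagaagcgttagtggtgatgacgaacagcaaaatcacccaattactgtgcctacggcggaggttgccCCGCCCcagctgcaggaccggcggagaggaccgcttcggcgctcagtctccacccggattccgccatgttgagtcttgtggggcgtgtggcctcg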

How the data were processed

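RNA was sequenced from sorted alveolar macrophages of 13 mice in 4 groups. Per the labels' protocols, polyadenylated RNA (100 ng of total RNA, integrity number over 7) went into NEBNext Ultra I libraries, a kit that keeps no strand, and 75-base single reads. Per the submitters' processing notes, bcl2fastq 2.19, TopHat2 (genome mm10), HTSeq and edgeR were used; the annotation, strand setting and treatment of multiple alignments are not given in the sources used here. The deposited table holds raw counts, per the file headers, for 43430 genes, of which 42462 had a symbol. The file's coordinates (the unit other, as the authors deposited them) gave positions only; its Length was not used for levels, since it exceeds the gene's own span for 1982 genes, and GENCODE M21 transcripts (best APPRIS rank, then longest) gave lengths.

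Libraries were grouped by their labels. edgeR 4.0.16 in R 4.3.3 was used for the quasi-likelihood test, with filterByExpr (11906 genes kept), trimmed mean of M values scaling and 1 coefficient per group over all 13 libraries (9 residual degrees of freedom). Each of 7 comparisons was adjusted with the Benjamini-Hochberg method over all genes tested and called at an adjusted p under 0.05. Alternatives were DESeq2 1.42.0, other scalings and filters, fewer groups, a replicate block and leaving out each library. Same-numbered libraries of different groups did not deviate together (1 of 16 pairs over a correlation of 0.1). Intervals cover 95% on a normal approximation. P-values measure the spread between these libraries. The members and lists were chosen with earlier results of these data known; named genes are all members and up to 4 called genes a list and comparison, beside Ccr2 and Higd2a, which were chosen after their values were seen. The fit was tested on simulated data. Tables and figures were made in Python 3.11.15 (Matplotlib 3.10.9; pandas 2.3.3; NumPy 2.4.6).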

Additional observations from a re-analysis of the deposited data

Results flagged for a closer look

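In the vehicle PBS group, the only group of 4 libraries, mt-Co1 was at 3236 CPM in replicate 4, where the other 3 libraries were at 3480 to 3509 CPM. That replicate also had the lowest total of all libraries, 5567481 counts. Chance marks about 1 in 20 groups in this way for each gene screened. All 30 nuclear and 5 mitochondrially encoded members tested were screened, and only this value of mt-Co1 was marked. The value lies beside the metformin PBS libraries (3114 to 3232 CPM).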

How the results depend on the processing

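Of the 14 counts of members called (nuclear and mitochondrially encoded, in 7 comparisons), those that moved by over 1.5 times under an alternative were these. The 7 nuclear members called for PM against PBS with metformin became 3 with DESeq2, 3 with only the groups compared and 4 with the replicate block, and 0 to 11 when 1 library was left out (0 without metformin PBS 3 or metformin PM 3, 11 without metformin PBS 1). Over all genes, the calls for PM with metformin numbered 1522 in the main fit. They numbered 1233 with DESeq2, 1482 with only the groups compared and 1401 with the replicate block. Without metformin PBS 3, metformin PM 3 or metformin PBS 1 they numbered 895, 884 and 1666. The 0 nuclear members with vehicle became 0 to 1 (1, Atp5j, without vehicle PBS 1). The 8 averaged over the arms became 6 to 14 (14 without metformin PBS 1). The 0 mitochondrial members for metformin against vehicle with PM became 1 with no filter on low counts and 1 with only the groups compared, and 0 to 1 when 1 library was left out (1 without vehicle PBS 1), in each case mt-Co2. The cause was not tested. Averaged over the arms, the calls of Atp5b, Atp5g3, Atp5j, Atp5o, Cox6b2, Cox7a2 and mt-Atp8 held in all 13 fits without 1 library and in the 6 other settings. No called value changed sign. Since same-numbered libraries did not deviate together (correlations of −0.102 to 0.116), the replicate block is given here only. Depth limits Cox7a1 and Atp5s, at under 3 CPM on average. mt-Co3 and mt-Atp6 were also under 3 CPM on average, and 99.9% and 99.5% of their windows occur unchanged in other transcripts.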
